A study of Sus scrofa with 11 samples.

Results

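Genes of programmed cell death were followed in carotid artery of pigs (Sus scrofa) by poly-A RNA sequencing. The list holds 39 genes of apoptosis, necroptosis and pyroptosis, which were found by gene name in the deposited count table. Of the 39, 35 are named among the 35670 genes of the table. BAK1 (ENSSSCG00000001516) and PMAIP1 (ENSSSCG00000026454) carry no name there and were found through a table of gene identifiers, so they were tested but are counted apart. BIK and TNFSF10 are also on the list and were not analysed here. Of the 35 named genes, 34 passed the filter on low counts, and FASLG did not.

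All animals ate a Western diet rich in fat and calories over 12 weeks. In the SWNT-SHP1i group (6 samples listed, 5 with counts) they received weekly intravenous infusions at 400 nM of single-walled carbon nanotubes carrying a chemical blocker of SHP-1, a phosphatase. In the SWNT group (5 samples) they received the same nanotubes without inhibitor at 400 nM, so both groups share the diet and the carrier, and there is no untreated group here. SWNT-SHP1i replicate 4, an animal that died early per its label, was not analysed here. Of the 10 animals with counts, 8 have numbers that start with B9, the exceptions being replicate 3 of each group, and nothing says whether this marks a batch. Breed, sex and age are not stated. The nanotubes are aimed at macrophages, and the question is whether fewer apoptotic cells and less inflammation then remain in the vessel wall.

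Apoptosis is run by caspases. In the mitochondrial route, BH3-only proteins sense stress and release BAX and BAK1 from the survival proteins of the BCL2 family, cytochrome c escapes, and APAF1 assembles with it to activate CASP9. In the receptor route, ligands such as FASLG and TNF bind death receptors, and FADD and TRADD recruit CASP8. Where caspase-8 is blocked, RIPK1 and RIPK3 can activate MLKL, which breaks the plasma membrane (necroptosis), and gasdermins form pores in it (pyroptosis). In atherosclerosis, dead cells that are not engulfed add to the necrotic core of the plaque.

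Library totals ran between 27593564 and 47718854 counts. SWNT-SHP1i replicates 3 and 6 stood apart from the other 8 libraries on the leading principal components of all tested genes, which hold 37.4% and 29.2% of the variance. Replicate 6 was the highest or the lowest library for 59.9% of all 15930 genes tested, and replicate 3 for 38.3%. All 10 smooth muscle markers had negative fold changes, with a summed level of 19780 to 49640 CPM (read counts relative to library size after TMM scaling) in SWNT-SHP1i and 40840 to 60630 CPM in SWNT. All 13 macrophage markers found in the table had positive fold changes, with sums of 419 to 2455 CPM in SWNT-SHP1i and 405 to 1257 CPM in SWNT, and MARCO had no counts in at least 1 library. Fibroblast markers had positive fold changes for 10 of 10, with sums of 56530 to 83580 CPM in SWNT-SHP1i and 34570 to 67580 CPM in SWNT. Schwann cell markers had negative fold changes for 7 of 7, with sums of 180 to 355 CPM in SWNT-SHP1i and 336 to 423 CPM in SWNT. T and NK cell markers summed to 17.9 to 204 CPM in SWNT-SHP1i and 18 to 75.7 CPM in SWNT, and neutrophil markers to 1.77 to 299.5 CPM in SWNT-SHP1i and 3.15 to 8.13 CPM in SWNT. The part of these markers and of the libraries standing apart in the results was not tested. In whole tissue, fewer cells of a type and less RNA per cell cannot be told apart.

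None of the 34 genes passed the test. The quasi-likelihood test of edgeR called 0 at an adjusted p under 0.05, as it called 0.0% of all genes, and 0 at an unadjusted p under 0.05, against 4.64% of all genes (3.49% higher and 1.15% lower in SWNT-SHP1i). DESeq2 also called 0, but it gave no p for some of the 34, among them BAX, GSDMD and CDKN1A. With limma-voom 0 were called, and 2 had an unadjusted p under 0.05, with the share of all genes in that fit not given here. Fold changes (log2 of SWNT-SHP1i over SWNT) were positive for 19 genes and negative for 15, and of all genes 50.8% were positive and 49.2% negative. They ran between -0.77 and 1.01, with a median of 0.03 where that of all genes was 0.01. Their standard errors (SE) had a median of 0.32 and ran between 0.16 and 0.89, and the adjusted p of every gene was 0.997 or above. For 0 of the 34 genes did the groups separate without overlap, against 0.358% of all genes (0.0816% higher and 0.276% lower). A p that misses the threshold does not show that the groups were alike.

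**Figure D1:**
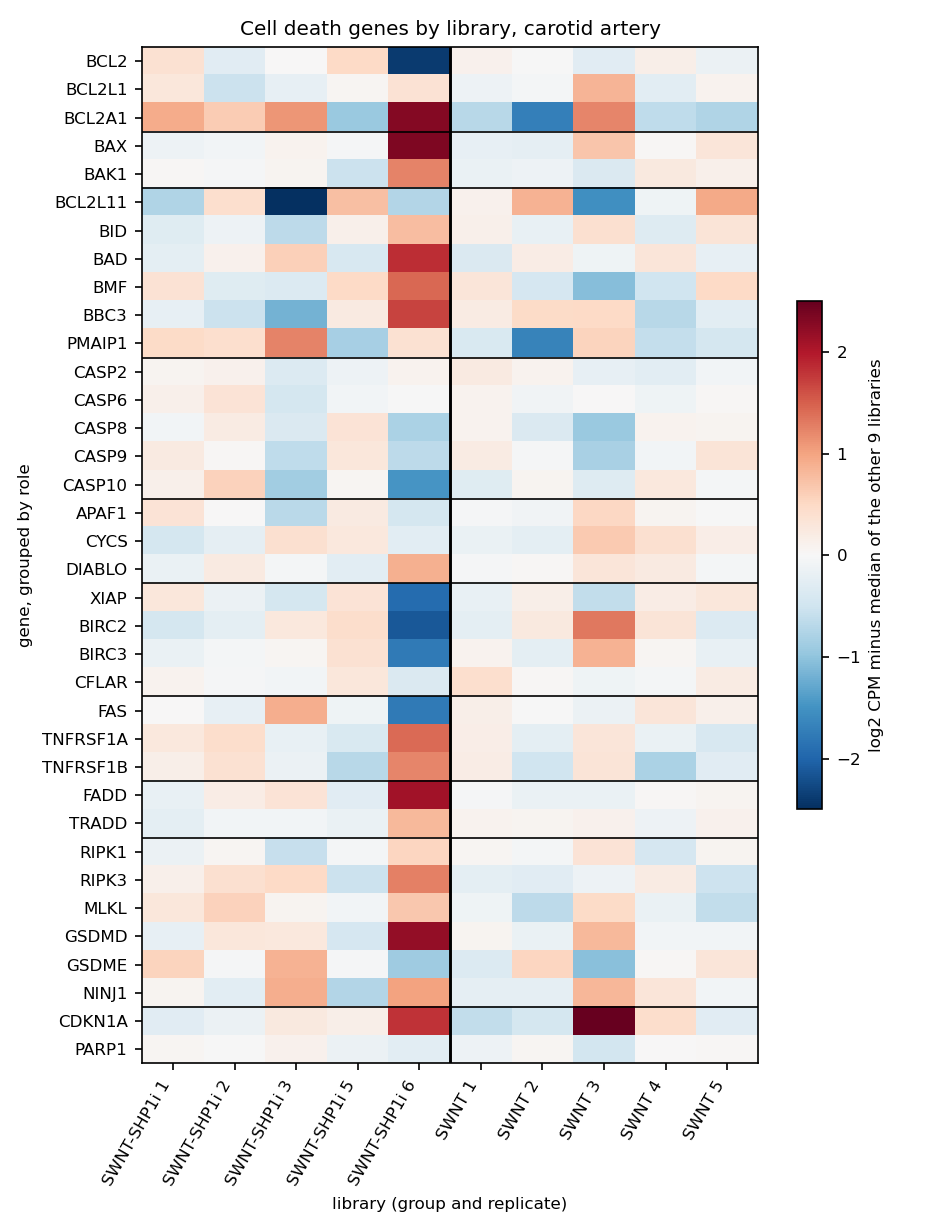
Each row is a tested cell death gene, each column a library with SWNT-SHP1i left of SWNT, and colour is log2 CPM minus the median of the other 9 libraries, cut at 2.5 in either direction. SWNT-SHP1i replicate 6 departs most, with BAX at 2.33 and BCL2 at -2.39, and SWNT replicate 3 stands out for CDKN1A.

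Levels per length, in length-scaled transcript units (TPM) computed from the counts and exon lengths, spanned a wide range. The tumour necrosis factor receptor TNFRSF1A was the most abundant member, at a median of 176 TPM in SWNT-SHP1i and 150 TPM in SWNT. Behind it came TNFRSF1B at 79.7 TPM, BAD at 75.8, BCL2L1 at 68.3, GSDMD at 64.5 and BAX at 57.5 TPM in SWNT-SHP1i. In SWNT, TNFRSF1B had 67.4 TPM, BAD 67.0, BCL2L1 74.3, GSDMD 72.3 and BAX 61.5 TPM. These levels lie close together compared with their spread over animals, so their order is not fixed by the data. FAS, at 5.41 TPM in SWNT-SHP1i and 6.16 TPM in SWNT, and BCL2A1, at 7.68 TPM in SWNT-SHP1i and 4.54 TPM in SWNT, were among the scarcest. The death ligand FASLG had 0 to 17 counts in SWNT-SHP1i libraries and 6 to 34 counts in SWNT libraries. In SWNT-SHP1i replicates 1, 3 and 6 it had 0 counts, which allows up to 0.0762, 0.0815 and 0.125 CPM (3 counts, counting error only).

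**Figure D2:**
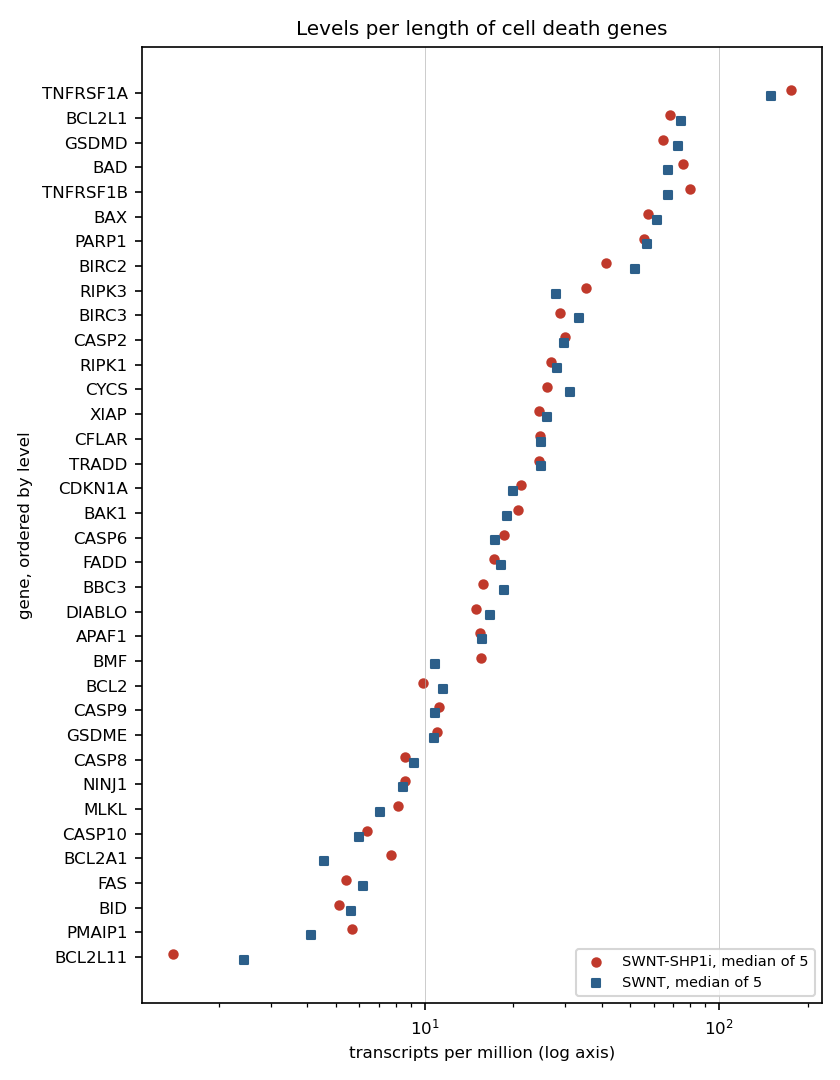
Median TPM of each cell death gene over 5 SWNT-SHP1i libraries (circles) and 5 SWNT libraries (squares), on a log axis, ordered by level. TNFRSF1A tops the order, and BCL2L11 lies lowest at 1.4 TPM in SWNT-SHP1i and 2.44 TPM in SWNT. FASLG, with a median of 0 TPM in SWNT-SHP1i, is not drawn.

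Among survival proteins of the BCL2 family, BCL2 itself had 35.4, 22.3, 27.2, 38.5 and 5.16 CPM in SWNT-SHP1i replicates 1, 2, 3, 5 and 6, against 29.0, 27.1, 22.3, 30.1 and 24.6 CPM in SWNT replicates 1 to 5. Its SWNT libraries lay close together and the only library far from them was SWNT-SHP1i replicate 6. The log2 fold change was -0.05 ± 0.40 (SE) and 0.21 without that library. BCL2L1, which encodes BCL-XL, had 65.2, 38.1, 47.9, 55.2 and 68.9 CPM in SWNT-SHP1i and 50.8, 53.6, 97.0, 45.7 and 57.3 CPM in SWNT. The groups overlapped, and the highest value was in SWNT replicate 3 (log2 fold change -0.15 ± 0.24, or 0.08 without SWNT replicate 3).

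BCL2A1 is a survival protein made largely by blood cells, and it had the largest fold change of the list. It had 3.02, 2.44, 3.42, 1.26 and 7.82 CPM in SWNT-SHP1i, against 1.5, 0.708, 3.71, 1.56 and 1.44 CPM in SWNT. SWNT-SHP1i replicate 6 was the only library above the highest SWNT library. The log2 fold change was 1.01 ± 0.57 (unadjusted p = 0.103, adjusted p = 0.997), 0.51 without SWNT-SHP1i replicate 6 and 1.46 without SWNT replicate 3, where its unadjusted p was 0.0272. Mean log2 CPM was 1.62 ± 0.93 in SWNT-SHP1i and 0.68 ± 0.82 in SWNT (SD, n = 5 each).

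BAX forms the pores through which mitochondria release cytochrome c (chromosome 6, 54222336 to 54228140, plus strand, Sscrofa11.1). It had 16, 16.7, 18.2, 17.2 and 86.6 CPM in SWNT-SHP1i, against 15.1, 15.0, 27.7, 17.5 and 21.1 CPM in SWNT. In 4 of 5 SWNT-SHP1i libraries BAX lay inside the SWNT range, and replicate 6 was far above it. The fold change of 0.68 ± 0.48 turned to -0.18 without that library and to -0.21 without replicates 3 and 6. BAK1, the other pore-forming protein, had a log2 fold change of 0.32 ± 0.30, or -0.06 without replicate 6. The ratio of BAX to BCL2 in TPM was 3.51, 5.80, 5.19, 3.47 and 130 in SWNT-SHP1i and 4.04, 4.31, 9.63, 4.52 and 6.65 in SWNT, with replicate 6 above and the other 9 libraries between 3.47 and 9.63.

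Of the 5 named BH3-only genes tested, 3 had positive and 2 negative fold changes, with a median of 0.25 that was -0.26 without SWNT-SHP1i replicate 6. BAD, which binds BCL2 and BCL-XL, had 22.5, 26.8, 37.7, 20.3 and 90.3 CPM in SWNT-SHP1i, against 20.7, 28.5, 24.9, 30.7 and 23.2 CPM in SWNT. Replicates 3 and 6 lay above the SWNT range (0.62 ± 0.38, or 0.07 without replicate 6 and -0.14 without replicates 3 and 6). BMF, which responds to loss of attachment, had 33.4, 26.1, 25.4, 37.1 and 70.5 CPM in SWNT-SHP1i and 32.2, 24.0, 15.3, 22.8 and 36.9 CPM in SWNT. All 5 SWNT-SHP1i libraries lay above 3 of the 5 SWNT libraries, although the groups overlapped (0.55 ± 0.32, or 0.22 without replicate 6).

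BBC3 (PUMA), a p53 target, had 5.22 to 12.2 CPM in SWNT-SHP1i replicates 1, 2, 3 and 5 and 33.6 CPM in replicate 6, against 7.38 to 14.7 CPM in SWNT (0.25 ± 0.44, or -0.37 without replicate 6). BCL2L11 (BIM), which binds all survival members of the family, had 65, 144, 0, 148 and 40 counts in SWNT-SHP1i and 124, 164, 42, 104 and 169 counts in SWNT. The 0 in SWNT-SHP1i replicate 3 allows up to 0.0815 CPM, where the other 9 libraries had 0.938 to 5.06 CPM. With that library the fold change was -0.53 ± 0.89, and without it -0.20. BID, which links caspase-8 to mitochondria, gave -0.04 ± 0.25, and it shares 1526 of 9480 exon bases with BCL2L13 on the opposite strand, so its reads cannot be assigned with certainty. PMAIP1 (NOXA), another p53 target, had 5.49, 5.33, 9.34, 2.88 and 5.16 CPM in SWNT-SHP1i, against 3.95, 1.59, 5.81, 3.41 and 3.77 CPM in SWNT. Its groups overlapped, with 1 SWNT-SHP1i library above all SWNT libraries (0.60 ± 0.40, and 0.34 without SWNT-SHP1i replicate 3).

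**Figure D3:**
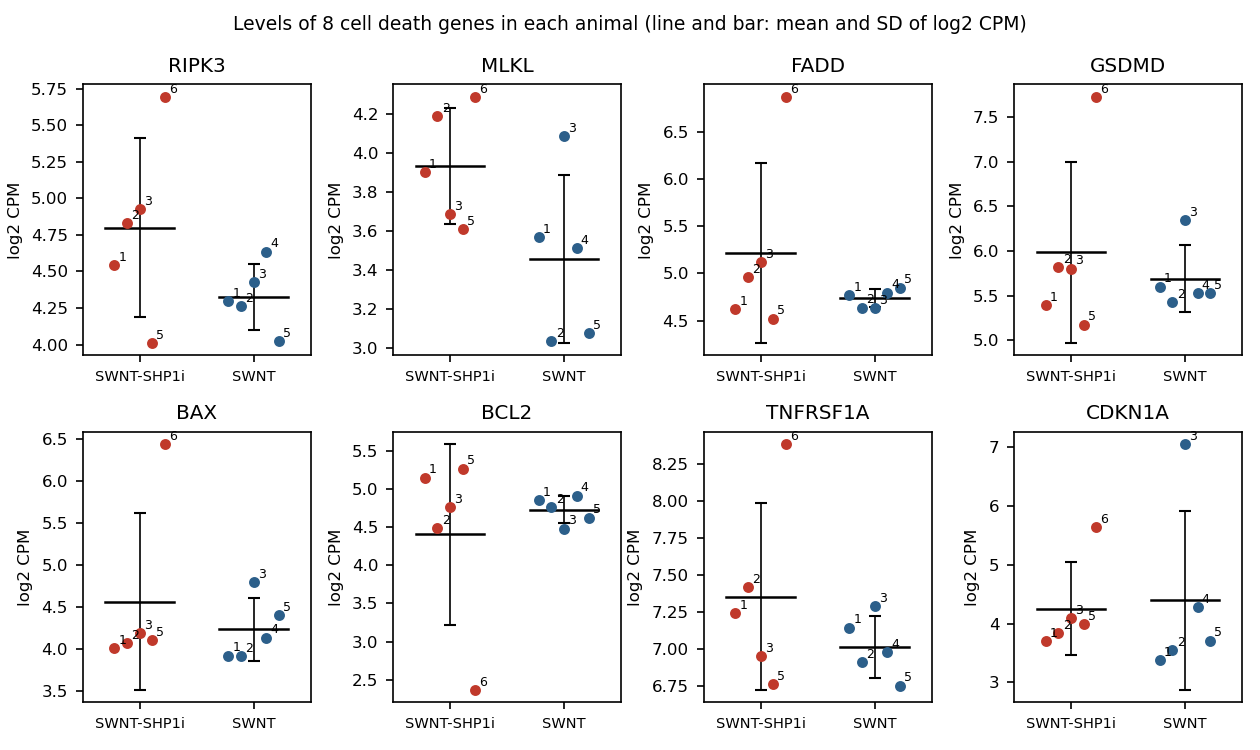
Log2 CPM of 8 cell death genes in each animal, SWNT-SHP1i left of SWNT, with numbers giving the replicate and the line and bar giving mean and SD of 5 libraries. SWNT-SHP1i replicate 6 lies far from the rest for BAX, BCL2, FADD and GSDMD, and SWNT replicate 3 for CDKN1A.

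The 5 caspases had fold changes between -0.11 and 0.10, with a median of -0.01. CASP2, an initiator linked to DNA damage, had 52.4, 53.4, 41.6, 48.3 and 52.6 CPM in SWNT-SHP1i and 58.4, 52.9, 45.7, 43.9 and 49.8 CPM in SWNT. Its values were among the steadiest of the list, replicate 6 included (log2 fold change -0.01 ± 0.16, 95% interval -0.36 to 0.33). CASP8, the initiator of the receptor route, had 9.25, 10.7, 7.55, 11.8 and 5.57 CPM in SWNT-SHP1i and 9.79, 7.55, 5.02, 9.84 and 9.67 CPM in SWNT. The groups overlapped, with SWNT-SHP1i replicates 2 and 5 above the SWNT range (0.10 ± 0.29). CASP6, an executioner caspase, gave 0.02 ± 0.21, CASP9 -0.07 ± 0.27 and CASP10 -0.11 ± 0.33. CASP10 had 5.45 CPM in SWNT-SHP1i replicate 6 and 8.28 CPM in replicate 3, below all SWNT libraries (12.2 to 17.5 CPM).

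Fold changes of the 3 mitochondrial factors lay between -0.18 and 0.10. CYCS, which encodes cytochrome c, had 23.7, 27.3, 37.6, 34.2 and 26.5 CPM in SWNT-SHP1i and 28.4, 27.1, 44.8, 37.5 and 32.0 CPM in SWNT (-0.18 ± 0.21). Replicates 1 and 6 of SWNT-SHP1i lay below every SWNT library. APAF1, the scaffold of the apoptosome, gave -0.17 ± 0.23, and SWNT replicate 3 was highest at 49.7 CPM, the rest of that group lying between 32.7 and 36 CPM. DIABLO (SMAC), which displaces the inhibitors of caspases, gave 0.10 ± 0.23.

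All 4 inhibitors of caspase activation had negative fold changes, with a median of -0.24 that was -0.07 without SWNT-SHP1i replicate 6. BIRC2 (cIAP1), a ubiquitin ligase at the TNF receptor complex, had 33.7, 38.4, 46.4, 52.6 and 10.5 CPM in SWNT-SHP1i, against 38.6, 45.7, 96.4, 48.4 and 36 CPM in SWNT. The lowest value was in SWNT-SHP1i replicate 6 and the highest in SWNT replicate 3, and the other 8 libraries overlapped. Its log2 fold change was -0.54 ± 0.39, -0.31 without SWNT-SHP1i replicate 6 and -0.22 without SWNT replicate 3. BIRC3 (cIAP2), its neighbour on chromosome 9, had 15.8 CPM in SWNT-SHP1i replicate 6 and 96.4 CPM in SWNT replicate 3, and 45.6 to 68.7 CPM in the other 8 libraries (-0.32 ± 0.34). Its fold change was -0.10 without SWNT-SHP1i replicate 6 and -0.08 without SWNT replicate 3. XIAP, the direct inhibitor of caspases, was at 14.5 CPM in SWNT-SHP1i replicate 6 and 35.9 to 63.5 CPM elsewhere (-0.17 ± 0.33, or 0.06 without that library). CFLAR, which holds caspase-8 in check, gave -0.11 ± 0.18.

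Of the 3 receptors, TNFRSF1A and TNFRSF1B had positive fold changes and FAS a negative one. FAS and TNFRSF1A are death receptors, and TNFRSF1B is a related TNF receptor without a death domain. TNFRSF1A had 151, 171, 124, 108 and 334 CPM in SWNT-SHP1i, against 141, 120, 156, 126 and 108 CPM in SWNT. Replicates 2 and 6 exceeded the highest SWNT library (0.45 ± 0.29, or 0.09 without replicate 6). TNFRSF1B, found mainly on immune and endothelial cells, had 107, 125, 96.4, 65.8 and 224 CPM in SWNT-SHP1i and 110, 75.9, 120, 61.5 and 87.9 CPM in SWNT. Again replicates 2 and 6 were above the SWNT range (0.44 ± 0.31, or 0.11 without replicate 6). FAS had 17.3 CPM in SWNT-SHP1i replicate 3 and 2.66 CPM in replicate 6, either side of the SWNT range of 8.31 to 11.3 CPM (-0.10 ± 0.38).

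FADD, the adaptor that brings caspase-8 to the receptors (chromosome 2, 3185675 to 3194818, minus strand), had 24.6, 31.2, 34.8, 23.0 and 117 CPM in SWNT-SHP1i. In SWNT it had 27.3, 24.9, 24.8, 27.8 and 28.8 CPM. The SWNT libraries were within a narrow range, with 3 SWNT-SHP1i libraries above it and 2 below it. The log2 fold change of 0.78 ± 0.41 (unadjusted p = 0.0793, adjusted p = 0.997) was 0.09 without replicate 6 and -0.02 without replicates 3 and 6. TRADD, the adaptor of TNFRSF1A, had 41.2, 46.5, 47.0, 44.0 and 82.9 CPM in SWNT-SHP1i and 49.6, 49.0, 50.8, 45.0 and 50.3 CPM in SWNT (0.10 ± 0.21, or -0.13 without replicate 6). It shares 100 exon bases with FBXL8 on the opposite strand.

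All 6 genes of lytic death had positive fold changes, that of RIPK1 being only 0.001, with a median of 0.34. The median was 0.10 without SWNT-SHP1i replicate 6, where RIPK1, GSDMD and NINJ1 turned negative (-0.16, -0.16 and -0.07). It was 0.06 when replicate 3 was left out too. RIPK3, the kinase that activates MLKL (chromosome 7, 74951145 to 74955251, plus strand), had the smallest p of the 34. It had 23.3, 28.4, 30.4, 16.1 and 51.8 CPM in SWNT-SHP1i, against 19.6, 19.2, 21.5, 24.9 and 16.3 CPM in SWNT. SWNT-SHP1i replicates 2, 3 and 6 were above the SWNT range and replicate 5 just below it. Mean log2 CPM was 4.80 ± 0.61 in SWNT-SHP1i and 4.33 ± 0.22 in SWNT (SD, n = 5 each). The log2 fold change was 0.56 ± 0.28 (95% interval -0.05 to 1.18, unadjusted p = 0.0686, adjusted p = 0.997), and 0.28 with replicate 6 left out.

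MLKL, the executor of necroptosis (chromosome 6, 12924894 to 12951173, plus strand), had 14.9, 18.2, 12.9, 12.2 and 19.5 CPM in SWNT-SHP1i and 11.9, 8.2, 17.0, 11.4 and 8.44 CPM in SWNT. Every SWNT-SHP1i library was above 4 of the 5 SWNT libraries, and only SWNT replicate 3 reached into their range. This fold change depended less on replicate 6 than that of RIPK3, at 0.45 ± 0.26 with all libraries, 0.35 without replicate 6 and 0.42 without replicates 3 and 6. Without SWNT replicate 3 it was 0.64 (unadjusted p = 0.024, adjusted p = 0.983). RIPK1, the upstream kinase, gave 0.00 ± 0.21, with 55.0 to 115 CPM in SWNT-SHP1i and 61.0 to 100 CPM in SWNT.

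GSDMD, the gasdermin cleaved by inflammatory caspases (chromosome 4, 995763 to 1000271, minus strand), had 42.1, 56.3, 55.8, 36.1 and 212 CPM in SWNT-SHP1i, against 48.5, 43.1, 81.4, 46.2 and 46.0 CPM in SWNT. Replicate 6 was above every other library and SWNT replicate 3 came next. The log2 fold change of 0.60 ± 0.45 became -0.16 without SWNT-SHP1i replicate 6. GSDME, the gasdermin cleaved by caspase-3, gave 0.23 ± 0.35, and unlike GSDMD it was low in replicate 6 at 10.5 CPM, the other 4 SWNT-SHP1i libraries having 19.0 to 35.1 CPM. That value lay inside the SWNT range for GSDME of 9.4 to 28.0 CPM, whose lowest library was SWNT replicate 3. NINJ1, which ruptures the membrane at the end of lytic death, gave 0.15 ± 0.35 and had its highest values in SWNT-SHP1i replicates 6 and 3 and SWNT replicate 3 (19.8, 18.4 and 17.5 CPM).

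CDKN1A (p21), the cell cycle inhibitor induced by p53, had 13.0, 14.2, 17.0, 15.9 and 49.9 CPM in SWNT-SHP1i, against 10.4, 11.7, 133, 19.4 and 13.1 CPM in SWNT. SWNT replicate 3 was far above all others and SWNT-SHP1i replicate 6 next. Its log2 fold change was -0.77 ± 0.72 with all libraries and 0.68 without SWNT replicate 3. PARP1, the DNA repair enzyme cut by caspases, was steady, with 63.4 to 81.9 CPM in SWNT-SHP1i and 56.0 to 78.4 CPM in SWNT (0.04 ± 0.16, 95% interval -0.31 to 0.39).

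**Figure D4:**
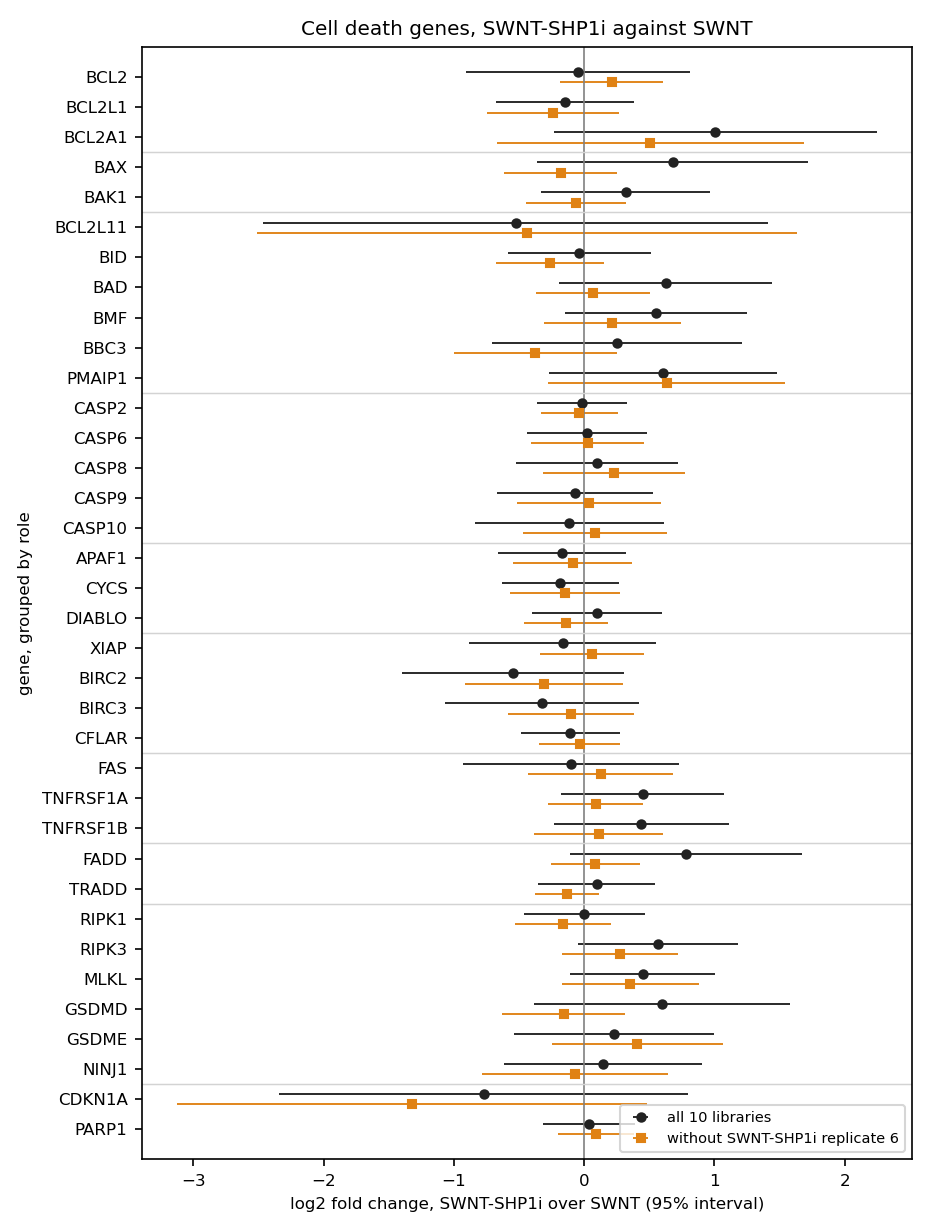
Log2 fold change of SWNT-SHP1i over SWNT with its 95% interval for each tested gene, for all 10 libraries (circles) and without SWNT-SHP1i replicate 6 (squares). All intervals reach 0. Of the 34 named genes, 12 of the 13 beyond 0.4 in either direction lie nearer 0 without that library. Those 13 were picked in the fit that includes that library, so a move toward 0 was favoured in advance. The share over all genes picked alike is not given here. PMAIP1, counted apart, lies at 0.60 with all libraries and at 0.63 without that library.

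SWNT-SHP1i replicate 6 departed most from the other libraries. It was the highest library for 16 of the 34 genes and the lowest for 7, and over all genes it was the highest for 29.4% and the lowest for 30.5%. Relative to the median of the other 9 libraries, the genes that stood above by over 1 on the log2 scale numbered 12 and those below by over 1 numbered 6, where 21.2% and 28.3% of all genes did so. The typical size of this departure was 1.11 for the list and 0.99 for all genes. Highest against the others were BAX (2.33), BCL2A1 (2.29), GSDMD (2.20), FADD (2.10) and BAD (1.86), and lowest were BCL2 (-2.39), BIRC2 (-2.11), XIAP (-1.92), BIRC3 (-1.77) and FAS (-1.77). In this library the departure ran with exon length, shorter genes being higher, with Spearman's rho of -0.28 across all genes and -0.50 across the 34, as a description, since genes are not replicates. Other libraries also ran with length. Over all genes rho was 0.31 in SWNT-SHP1i replicate 5, and between -0.12 and 0.11 in the other 8 libraries. Over the 34 it was 0.30 in SWNT-SHP1i replicate 5, -0.36 in SWNT-SHP1i replicate 3 and -0.39 in SWNT replicate 3. It was 0.31 in SWNT replicate 1, 0.36 in SWNT replicate 5 and between -0.14 and 0.22 in the remaining libraries. The part of length in these values was not tested.

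SWNT replicate 3 was the highest library for 6 of the 34 genes and the lowest for 5, where over all genes it was highest for 11.3% and lowest for 10.2% (21.6% together). The genes concerned include CDKN1A, BIRC2, BIRC3 and BCL2L1 on the high side. TNFAIP3, the ubiquitin editor that restrains TNF signalling, was at 92.1 CPM there and at 6.08 to 17.4 CPM in the other 9 libraries. Red cell markers summed to 1299 CPM in SWNT replicate 3 and to 26.8 to 327 CPM in the other 9 libraries. Endothelial markers summed to 1853 CPM there, with 583 to 1117 CPM in the rest of SWNT and 734 to 1978 CPM in SWNT-SHP1i. The part of these markers was not tested. SWNT-SHP1i replicate 3 was highest for 3 genes, which include FAS, and lowest for 7, which include BCL2L11 and APAF1, where over all genes it was highest for 14.1% and lowest for 24.2%.

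Levels of cell death genes were set beside marker levels over the 10 animals in 68 relations, 34 genes with the mean log2 CPM of macrophage and of smooth muscle markers. RIPK3 with smooth muscle markers was the only relation past the threshold after Benjamini-Hochberg adjustment over all 68. Its Pearson r was -0.94 (permutation p = 0.00046, adjusted p = 0.0313) and its Spearman rho -0.87 (permutation p = 0.00215, adjusted p = 0.146). Without the 2 animals farthest from the median marker level, SWNT-SHP1i replicate 6 and SWNT replicate 5, r was -0.77 (exact permutation p = 0.0263, adjusted p = 0.527). Over the 8 animals whose number starts with B9 it was -0.94 (exact permutation p = 0.00295, adjusted p = 0.0251). The sign of r was the same in each of these sets, and the call was lost without the 2 animals. The relation over all animals includes the group difference, since smooth muscle markers were lower in SWNT-SHP1i and RIPK3 had a positive fold change. With the group means removed and animals permuted within groups, r was -0.92 (exact permutation p = 0.00736, adjusted p = 0.28), and 0 of the 68 relations passed. Relations were computed for the 34 genes only, so it is not known how often other genes would pass. SWNT-SHP1i replicate 6 had the lowest smooth muscle level (9.56) and the highest macrophage level (6.92). It was also the highest or lowest library for 59.9% of all genes tested.

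With macrophage markers, RIPK3 had r = 0.84 (permutation p = 0.00245, adjusted p = 0.0588) and rho = 0.82 (permutation p = 0.00577, adjusted p = 0.196). TNFRSF1A had r = 0.80, FADD 0.77 and TNFRSF1B 0.78, with adjusted permutation p = 0.0588, 0.0588 and 0.0598, and BIRC2 ran the other way at -0.80 (adjusted permutation p = 0.0588). Without SWNT-SHP1i replicate 6 and SWNT replicate 2, r was 0.68 for RIPK3, 0.55 for TNFRSF1A, 0.57 for FADD, 0.52 for TNFRSF1B and -0.65 for BIRC2. With smooth muscle markers, BCL2A1 had r = -0.82 (adjusted permutation p = 0.0588) and FADD -0.86 (adjusted permutation p = 0.0598). By rank they were weaker, with rho = -0.70 for BCL2A1 and -0.48 for FADD (adjusted permutation p = 0.290 and 0.705). Within the animals numbered B9, 12 relations passed, and replicate 6 is among those animals. The share of all genes that would pass there was not computed.

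**Figure D5:**
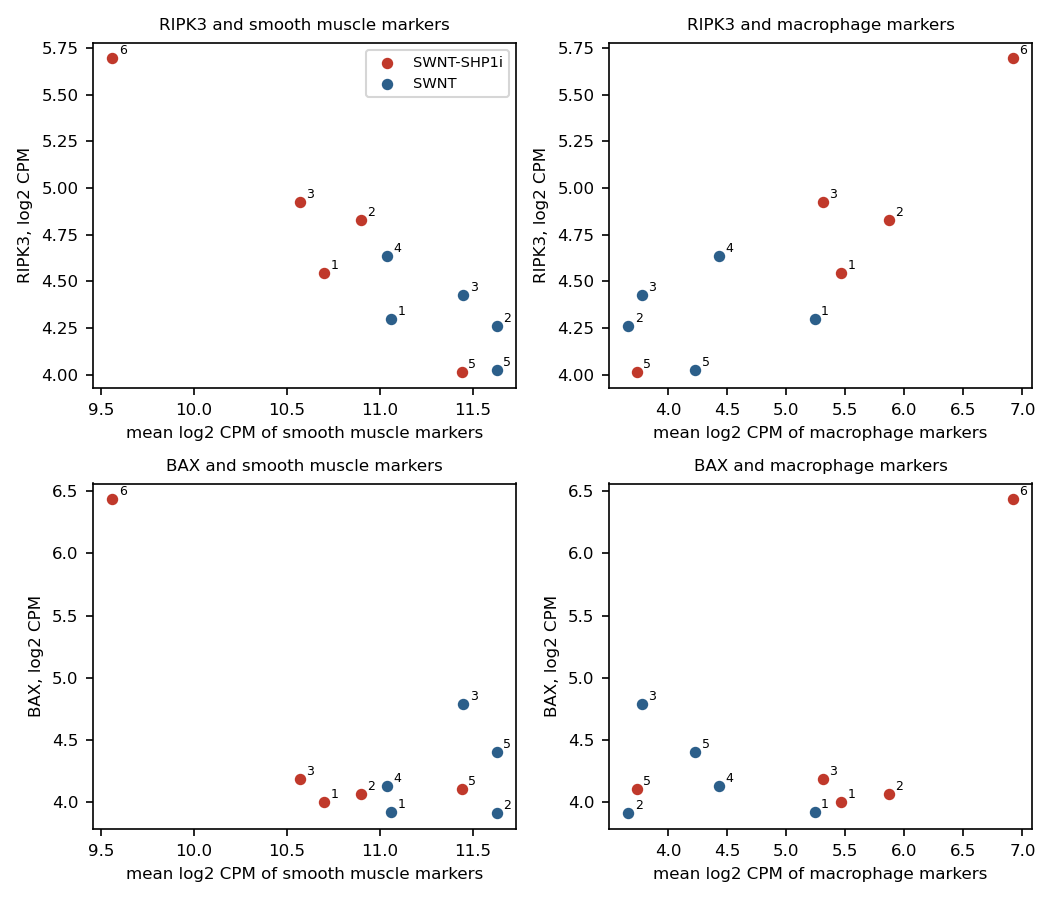
RIPK3 and BAX (log2 CPM, vertical axes) in each animal against the mean log2 CPM of smooth muscle and macrophage markers (horizontal axes), SWNT-SHP1i and SWNT in different colours with replicate numbers. RIPK3 is graded over the animals, while BAX is high in SWNT-SHP1i replicate 6 and near level in the others.

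Further genes of the same pathways gave 0 calls at an adjusted p under 0.05. Of 28 other apoptosis genes tested, 17 had positive and 11 negative fold changes, with a median of 0.11 that was -0.05 without SWNT-SHP1i replicate 6. TNFRSF21 (death receptor 6) had 133, 42.3, 90.3, 28.5 and 73.5 CPM in SWNT-SHP1i, against 28.8, 40.8, 38.7, 29.2 and 25.2 CPM in SWNT. In 4 of 5 SWNT-SHP1i libraries it was above every SWNT library. Its log2 fold change was 1.18 ± 0.36 (unadjusted p = 0.00657, adjusted p = 0.997), also 1.18 without replicate 6 and 1.07 without replicates 3 and 6. BIRC5 (survivin), which also acts in cell division, gave 0.86 ± 0.46 and 0.31 without replicate 6. MCL1, a survival protein of the BCL2 family, gave -0.35 ± 0.24, with 163 to 405 CPM in SWNT-SHP1i and 311 to 490 CPM in SWNT. The lowest of these was SWNT-SHP1i replicate 6, without which it gave -0.20.

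Of 15 other necroptosis and pyroptosis genes tested, 11 had positive and 4 negative fold changes, with a median of 0.22 that was -0.03 without SWNT-SHP1i replicate 6. IL18, a cytokine released through gasdermin pores, had 3.25, 6.26, 7.01, 1.41 and 10.9 CPM in SWNT-SHP1i and 3.54, 1.89, 1.27, 2.18 and 1.59 CPM in SWNT. In 3 SWNT-SHP1i libraries it exceeded every SWNT library (1.46 ± 0.52, unadjusted p = 0.0157, adjusted p = 0.997), and the fold change was 1.10 without replicate 6. TNFAIP3 gave -1.49 ± 0.56 and -0.50 without SWNT replicate 3. CYLD, a deubiquitinase that permits RIPK1 to kill, gave -0.57 ± 0.28. Of 19 other p53 targets, 8 were positive and 11 negative with a median of -0.04, and POLH (-0.42 ± 0.41), BTG2 (-0.65 ± 0.68) and MDM2 (-0.22 ± 0.23) had the smallest p of that list. BTG2 gave -1.73 without SWNT-SHP1i replicate 5 (unadjusted p = 0.0056, adjusted p = 0.325) and -0.12 without SWNT replicate 3. POLH gave -0.16 without SWNT-SHP1i replicate 6, and MDM2 gave -0.10 in that fit and -0.39 when SWNT-SHP1i replicate 5 was left out.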

How the data were processed

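RNA was extracted with Trizol from carotid artery and sequenced after poly-A selection, per the labels' protocols. The authors deposited 1 table of raw read counts, not normalized, with genes in rows. Per the submitters' processing notes, the tools were Trim Galore, STAR and DESeq2, and the genome build was Sscrofa11.1. Which program counted the reads, and with what strand setting, is not given in the sources used here. The 10 libraries were named by group and by replicate numbers in accession order, which pair no animals. The median chi-square per gene was at least 5.4 over all 45 library pairs, where sampling noise alone gives 0.455. No library therefore repeats the reads of another, which does not by itself show separate animals. Each sample has its own animal number, so each library counts as a replicate, and no label names a batch.

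After filterByExpr with a minimum count of 10, 15930 genes remained, and TMM gave the scaling. SWNT-SHP1i was tested against SWNT with the robust quasi-likelihood test of edgeR 4.0.16 (R 4.3.3), with no covariate, and p was adjusted by Benjamini-Hochberg over every gene tested (threshold 0.05). The SE is the absolute log2 fold change over the square root of F, and the 95% intervals use it. Log2 CPM has a prior count of 2. The fitting code was tested on simulated data. Genes named are the 12 with the smallest p, the smallest p and the highest level per length of each role, and the 3 with the smallest p of each further list, and other members are given more briefly. Correlations used 100000 permutations, or all orders for 8 animals. The genes, lists and tests were chosen with earlier results of these data known. The alternatives tried were DESeq2 1.42.0, limma-voom with quality weights (limma 3.58.1), a non-robust fit, scaling by RLE or upper quartile, filters of 0 counts or of 1 CPM in 5 libraries, the start of the animal number as a term, subsets of libraries, and an adjusted p under 0.1. Where a gene overlaps another on the opposite strand, reads cannot be assigned with certainty, and near-identical copies share reads. Besides BID and TRADD, such overlaps were found for CASP8 (555 of 3054 exon bases, with FLACC1) and CASP9 (153 of 3543, with CELA2A). BAD shares 50 of 1007 exon bases with GPR137, which had a mean of 2199 counts where BAD had 1121.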

Additional observations from a re-analysis of the deposited data

Results flagged for a closer look

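Log2 CPM of the 36 tested genes was examined for a library far from the other 4 of its group, in 72 groups of 5. The gap to the nearest library exceeded 0.71 of the group's range in 13 cases, where chance flags about 1 in 20 groups of normally distributed values. Of these 13 cases, 8 were in SWNT-SHP1i replicate 6, 4 in SWNT replicate 3 and 1 in SWNT-SHP1i replicate 3. Genes of a library are not independent, and the share of such flags over all genes is not given here. The median absolute log2 departure of SWNT-SHP1i replicate 6 was 0.99 over all genes and 1.11 over the list.

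SWNT-SHP1i replicate 6 was flagged as the highest of its group for BAX (86.6 CPM), FADD (117 CPM), TRADD (82.9 CPM), GSDMD (212 CPM) and CDKN1A (49.9 CPM). It was the lowest of its group for BCL2 (5.16 CPM), BIRC2 (10.5 CPM) and BIRC3 (15.8 CPM). SWNT-SHP1i replicate 3 was the lowest for BCL2L11 (0 CPM). SWNT replicate 3 was the highest of its group for APAF1 (49.7 CPM), BIRC3 (96.4 CPM), GSDMD (81.4 CPM) and CDKN1A (133 CPM).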

How the results depend on the processing

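No member passed an adjusted p under 0.05 in any of the 20 alternative fits, nor under 0.1, and the lowest adjusted p over them was 0.384 (RIPK3 without SWNT-SHP1i replicate 5). DESeq2 gave no p for some members, among them BAX, GSDMD and CDKN1A, so that fit does not speak for them. At an unadjusted p under 0.05 there were 2 members over the animals numbered B9, 2 with limma-voom, and 0 to 3 with 1 library left out. The shares of all genes under that threshold in the same fits are not given here, so these counts are description only. The median of all genes stayed between -0.02 and 0.03. The cause was not tested for any shift below.

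Role medians that moved by more than the spread between animals were those of the survival genes (0.27 without SWNT-SHP1i replicates 3 and 6), the receptors (0.13 in that fit, and 0.11 to 0.58 with 1 library left out) and their adaptors (-0.085 in that fit, and -0.023 to 0.55). The mitochondrial factors gave 0.076 and the pair of CDKN1A and PARP1 gave 0.34 over the animals numbered B9, and that pair -0.62 to 0.32 with 1 library left out. BAX, the only named effector, gave -0.21 without replicates 3 and 6, -0.034 with limma-voom and -0.18 to 0.84 with 1 library left out.

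Of the 34 members, the sign turned for 12 without SWNT-SHP1i replicate 6, for 16 without replicates 3 and 6, for 5 without SWNT replicate 3 and for 7 over the animals numbered B9. Every alternative was recomputed for 28 genes, those named by rule, and the turns that follow are among these. Without replicates 3 and 6 they were, beside BAX, BAD (-0.14), FADD (-0.020), GSDMD (-0.24), TRADD (-0.15), CASP2 (0.041) and MDM2 (0.029). With limma-voom, signs turned for BAX, BAD (-0.023), TRADD (-0.13) and CASP2 (0.017). Over the animals numbered B9, signs turned for BCL2L1 (0.13), BTG2 (0.088), CASP2 (0.012), CDKN1A (0.76) and PARP1 (-0.078). CDKN1A gave 0.18 with the animal number start as a term, and CASP2 gave 0.012 with RLE scaling and with DESeq2. With 1 library left out, the range was -0.24 to 0.084 for BCL2L1, -0.066 to 0.045 for CASP2, -0.040 to 0.23 for CASP8 and -1.32 to 0.68 for CDKN1A. It was -0.16 to 0.80 for GSDMD, -0.039 to 0.088 for PARP1 and -0.13 to 0.16 for TRADD. Of the relations with marker levels, 1 passed in all animals and 0 without the 2 animals farthest from the median. Within the animals numbered B9, 12 passed, and 0 with group means removed, which was added after seeing the data. No share over all genes was computed beside these counts. No paired analysis was possible because the labels give no replicate numbers and each animal has its own.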

Other observations

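Ratios of related members were taken within each animal, in TPM. The ratio of BIRC3 to BIRC2 lay between 0.598 and 0.770 in SWNT-SHP1i and between 0.511 and 0.740 in SWNT, although both genes were low in SWNT-SHP1i replicate 6 and high in SWNT replicate 3. That of TNFRSF1A to TNFRSF1B lay between 2.01 and 2.57 in SWNT-SHP1i and between 1.91 and 3.20 in SWNT. The ratio of RIPK3 to RIPK1 was 1.42, 1.56, 2.49, 0.915 and 2.02 in SWNT-SHP1i and 1.08, 1.09, 0.966, 1.84 and 0.874 in SWNT, so 4 SWNT-SHP1i libraries were above 4 of the SWNT libraries. The ratio of GSDMD to GSDME was 57.2 in SWNT-SHP1i replicate 6 and 24.6 in SWNT replicate 3, and 4.18 to 8.92 in the other 8 libraries. These values were not tested.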
